A study of Homo sapiens with 4 samples.

Results

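The mTOR brakes examined here are 10 genes whose products hold back the mTORC1 kinase, and the sites described are the listed N6-methyladenosine (m6A) positions that fell, on the same strand, in an exon of any GENCODE transcript of DDIT4, DDIT4L, SESN1, SESN2, SESN3, TSC1, TSC2, DEPTOR, AKT1S1 or TRIB3. Of 18789 sites in the list, 38 met this rule. They lay in 5 of the 10 genes, with 11 sites in TRIB3, 10 in DDIT4, 9 in SESN2, 6 in TSC2 and 2 in AKT1S1. DDIT4L, SESN1, SESN3, TSC1 and DEPTOR held none. Of 19378 coding genes examined in the same way, 3880 (20.0%) held at least 1 exonic site.

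The sites were mapped by miCLIP2, a method that crosslinks fragmented RNA to an antibody against m6A with ultraviolet light and reads the crosslinked nucleotide from where the cDNA ends. The RNA was polyadenylated RNA of untreated, wild-type C643 cells, an established line from an anaplastic thyroid carcinoma, in 1 group of 3 biological replicates sequenced as 4 libraries. The machine learning tool m6Aboost then judged every peak at an A, and a site carries its prediction score, between 0 and 1. The score is neither a methylation level nor a read count. Because the deposited list has no values per replicate, there is no replicate spread to report, the depth behind each site is unknown, and no test over samples was possible. The intervals given are 95% Wilson intervals over sites, motifs or genes, and order-statistic intervals for medians, and they hold no variation between cultures. Expression was not measured in these files, so a transcript without listed sites cannot be told apart from one with too few reads, and the cell line could not be checked against marker genes.

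mTORC1 is the kinase complex that promotes protein synthesis and cell growth when nutrients and growth factors are plentiful. Its brakes act at several levels. DDIT4 (REDD1) and its relative DDIT4L are stress-induced proteins that restrain mTORC1 through the TSC complex, and TSC2, held stable by TSC1, is the GTPase-activating protein that switches off the mTORC1 activator Rheb. The sestrins SESN1, SESN2 and SESN3 inhibit GATOR2 and so dampen signalling by amino acids. DEPTOR and AKT1S1 (PRAS40) bind the mTOR complexes themselves, and TRIB3 is a stress-induced pseudokinase that binds AKT upstream of mTORC1. m6A is placed on mRNA by the METTL3-METTL14 methyltransferase, mostly at the DRACH consensus, in which D stands for any base but C, R for a purine and H for any base but G, and the modified adenosine is in the middle. The modification is often found in long last exons and around stop codons, and reader proteins that bind it influence mRNA stability and translation.

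The sequences around the sites show what the listed positions share. All 10 windows of DDIT4 are given because this short transcript carried them all in 1 exon, together with the pairs of SESN2 and TRIB3 whose windows overlap, a TSC2 pair at the same motif, and SESN2 site 4 for the highest score of its gene. Each window of 21 nt is written 5′ to 3′ as DNA from the GRCh38 reference, and capitals mark the pentamer with the listed A in its middle.
DDIT4 site 1, chr10:72274749-72274769, plus strand: ctgaggatGAACActtgtgtg
DDIT4 site 2, chr10:72274869-72274889, plus strand: tgggcaaaGAACTactgcgcc
DDIT4 site 3, chr10:72274922-72274942, plus strand: gcgctgctGGACGtctgcgtg
DDIT4 site 4, chr10:72275024-72275044, plus strand: ctgcgcctGGACTcacgactc
DDIT4 site 5, chr10:72275069-72275089, plus strand: agctccgcCAACTctcccttc
DDIT4 site 6, chr10:72275179-72275199, plus strand: ggagtgttGAACTtcaacctg
DDIT4 site 7, chr10:72275228-72275248, plus strand: agacgactGAACTtttggggt
DDIT4 site 8, chr10:72275264-72275284, plus strand: gagctgagGGACTgattcctg
DDIT4 site 9, chr10:72275826-72275846, plus strand: cccatcgtGTACTgcagagtt
DDIT4 site 10, chr10:72275917-72275937, plus strand: tccatctaGAACTgtttacat
SESN2 site 2, chr1:28280959-28280979, plus strand: actggaatGGACAgttcattg
SESN2 site 3, chr1:28280975-28280995, plus strand: cattgcacTGACTctgggatc
SESN2 site 4, chr1:28281033-28281053, plus strand: atcctaagGGACCacaccctt
SESN2 site 5, chr1:28281135-28281155, plus strand: ggccttccTGAACtgggaagt
SESN2 site 6, chr1:28281136-28281156, plus strand: gccttcctGAACTgggaagtc
TSC2 site 4, chr16:2084411-2084431, plus strand: atcctcggGGACCctggggac
TSC2 site 5, chr16:2084476-2084496, plus strand: acagtcagGGACCctggacgg
TRIB3 site 3, chr20:396620-396640, plus strand: tccctgatGGACTggggctgg
TRIB3 site 4, chr20:396631-396651, plus strand: ctggggctGGACGaagccagg
TRIB3 site 5, chr20:396716-396736, plus strand: ccaacagtGGATTgagtttgg
TRIB3 site 6, chr20:396720-396740, plus strand: cagtggatTGAGTttgggggt

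DRACH held 31 of the 38 sites (81.6%, 66.6 to 90.8). In the main transcripts, the longest well-supported isoform of each gene, it held 30 of 37 (81.1%, 65.8 to 90.5). That interval includes the 88.6% of sites in all coding host transcripts. Of the 7 others, 2 were at GGACG and the rest at pentamers that occurred once each. GGACT was the most frequent pentamer with 10 sites, and GAACT followed with 7. DDIT4 held 4 of the 7 GAACT sites. TGACT was listed 3 times and each time in SESN2. In the main transcripts 7 of 37 member sites were at GAACT (18.9%, 9.48 to 34.2), against 10.0% (9.57 to 10.4) of the 18097 sites in all coding host transcripts. The interval of the brakes includes the share of all hosts.

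**Figure D1:**
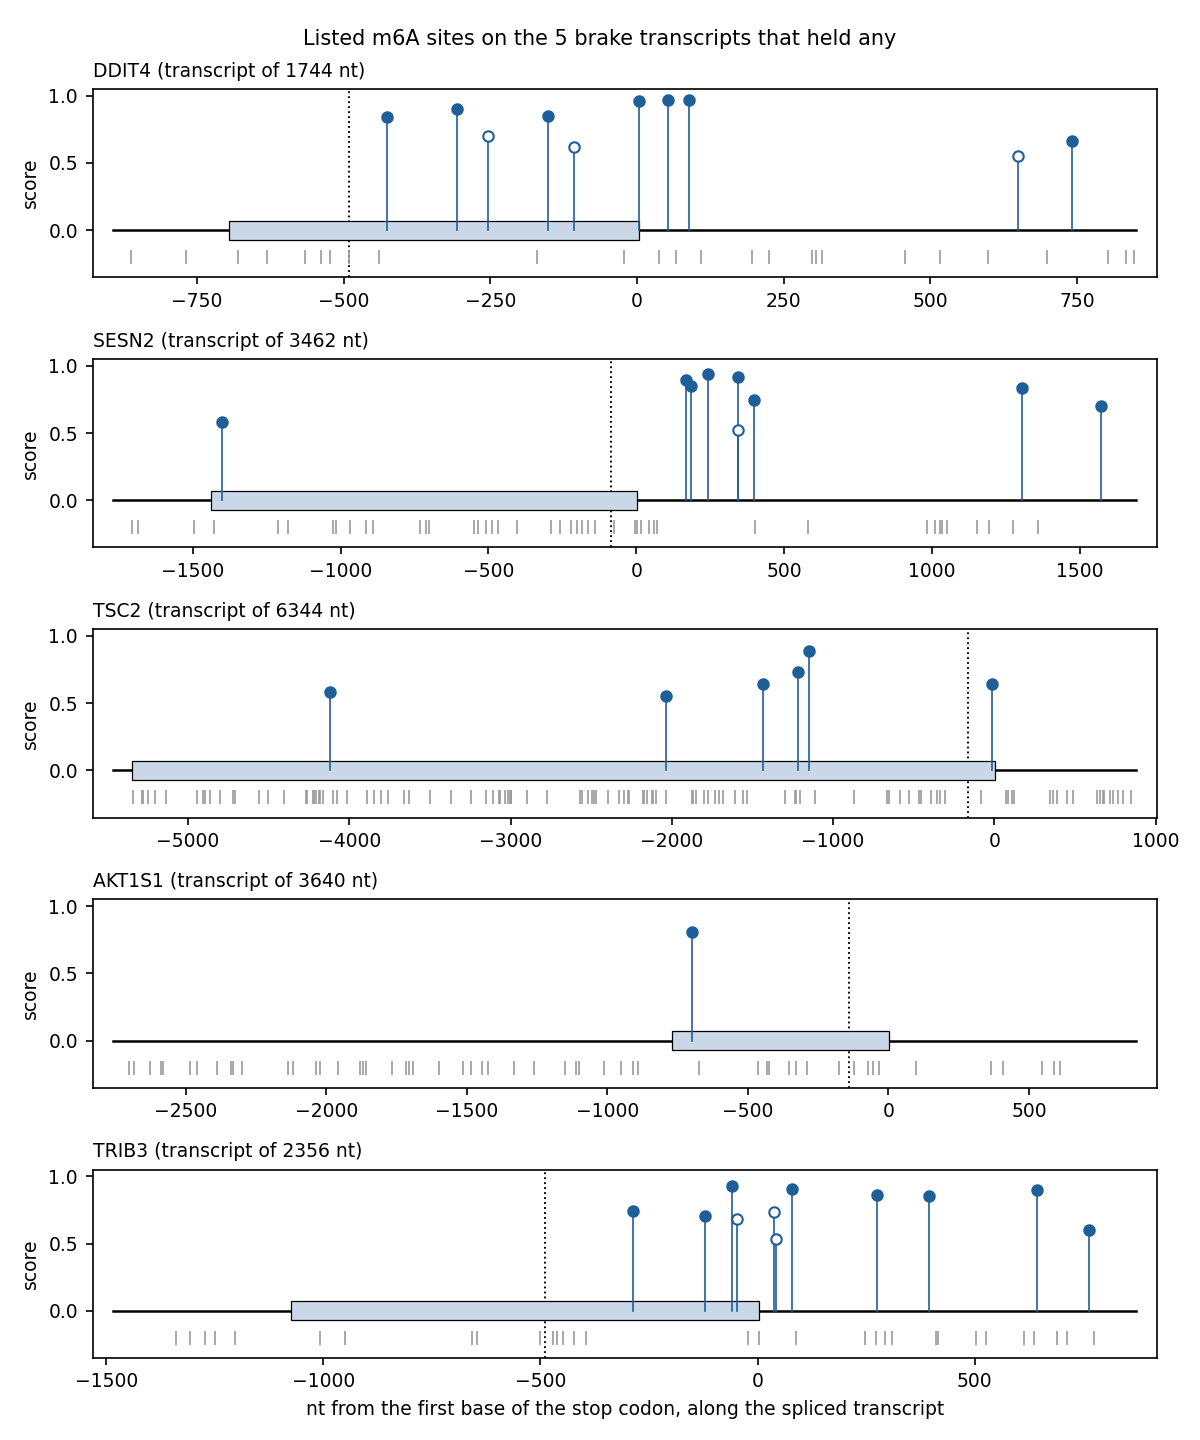
Listed m6A sites on the main transcripts of DDIT4, SESN2, TSC2, AKT1S1 and TRIB3. The x axis gives the distance in nt from the first base of the stop codon along the spliced transcript and the y axis the prediction score; circles are listed sites (filled at the DRACH consensus, open elsewhere), grey ticks are consensus motifs that were not listed, boxes are coding sequences, lines are UTRs and the dotted line is the last exon junction. All sites of DDIT4 and TRIB3 lie to the right of the last junction, and all 6 sites of TSC2 lie in its coding sequence.

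DDIT4 (ENSG00000168209.6, GRCh38 chr10:72273919-72276036, plus strand) has a short spliced transcript of 1744 nt in 3 exons, of which the last holds 1342 nt. Its 10 sites amounted to 5.73 per kb, a density above that of 97.7% of coding genes with sites, whose median was 1.25 per kb. At least 10 sites were found in 2.55% of coding genes. All 10 were in exon 3. Exons 1 and 2 hold 7 DRACH motifs, none of them listed, and in all coding host transcripts 3.64% of the motifs outside the last exon and 10.1% of those in it were listed.

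The 5 coding sites of DDIT4 were spread from codon 90 to codon 197. The first, at position 72274759 in codon 90, lay at GAACA with a score of 0.843, higher than 94.6% of all listed GAACA sites. The second, at 72274879 in codon 130, lay at GAACT with a score of 0.904. Codon 148 held a site outside DRACH, at GGACG at 72274932, with a score of 0.698. The GGACT site at 72275034 fell on the second base of codon 182 and scored 0.847, above 54.9% of GGACT sites in the list, so near the middle for its motif. The last coding site, at CAACT at 72275079 in codon 197, scored 0.617. The adenosine 4 nt downstream of the GGACT site, at 72275038, was not listed. The windows of the 10 DDIT4 sites held 32 further adenosines in all, and 0 of these were listed. This was not particular to DDIT4, since over all member windows 4 of 137 were listed, with 0 of 24 in TSC2 and 0 of 8 in AKT1S1. An adenosine shared by overlapping windows counts in each of them. The share over the windows of the whole list was not computed, so 0 of 32 is no result about DDIT4.

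The 3 highest scores of all 38 sites belonged to 3 DDIT4 sites at the start of the 3′ UTR. The first, at 72275189, was the base directly after the stop codon, so that the first 2 bases of its GAACT motif are the last 2 bases of the UGA codon. Its score was 0.962. The next was the GAACT at 72275238, 52 nt from the first base of the stop codon, with 0.966. The third was the GGACT at 72275274, 88 nt from it, with 0.969, higher than 99.1% of the whole list. After these the transcript had no listed site for 562 nt. The pair at the far end scored lower, with 0.551 at GTACT (72275836) and 0.666 at GAACT (72275927), and lay 650 and 741 nt beyond the first base of the stop codon.

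Within DDIT4 the same motif thus carried very different scores. The 4 GAACT sites scored 0.904, 0.962, 0.966 and 0.666, and the last of these exceeded 15.3% of all GAACT sites while the others exceeded 76.3% to 97.4%. The transcript has 8 GGACT or GAACT motifs in all. All 6 in exon 3 were listed, and neither of the 2 in exon 2 was. In all coding host transcripts the same pair of motifs was listed in 29.7% (29.0 to 30.5) of 13717 cases in last exons and in 12.5% (11.9 to 13.1) of 12800 cases in other exons. The interval of the 6 of 6 in DDIT4 runs from 61.0% to 100%. GGACT and GAACT are the most frequent pentamers of the member sites themselves, so this count describes those sites and is no independent result. Over all DRACH motifs of the last exon, DDIT4 had 7 of 26 listed (26.9%, 13.7 to 46.1), against 10.1% in all hosts. Of all its DRACH motifs 7 of 33 were listed (21.2%, 10.7 to 37.8), against 7.08% of the 226251 motifs of coding host transcripts. Among motifs within 200 nt of the stop codon 4 of 10 DDIT4 motifs were listed (40%, 16.8 to 68.7), against 18.4% in all hosts.

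Its relative DDIT4L (ENSG00000145358.6, chr4:100185870-100190782, minus strand) also has 3 exons but a longer transcript of 2604 nt and a last exon of 2298 nt. It holds 51 DRACH motifs, among them 8 GAACT and 4 GGACT, and none was listed (upper end of the interval 7.0%). The relatives differed in base composition, with a GC content of 58.0% in DDIT4 and 41.4% in DDIT4L.

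**Figure D2:**
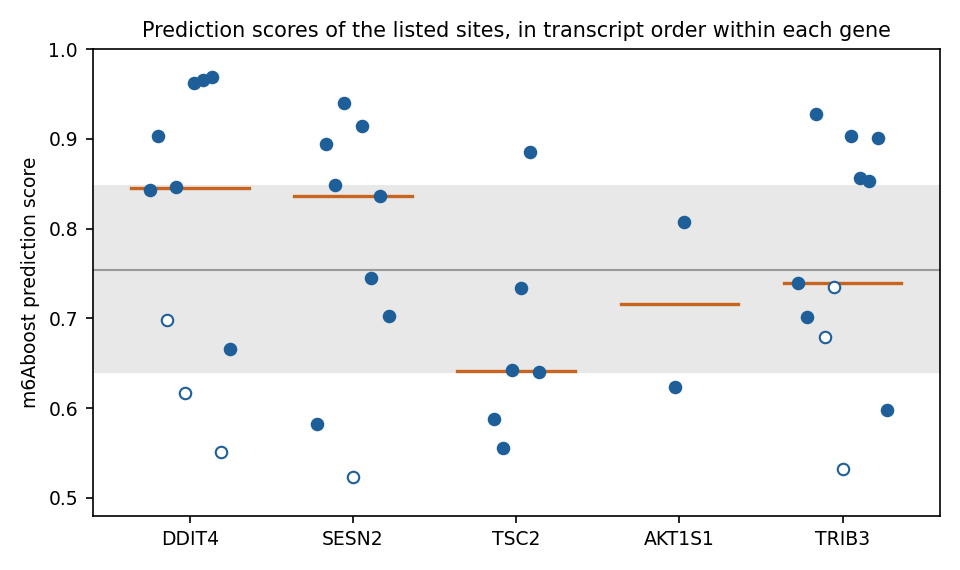
Prediction scores of the 38 sites by gene, each circle 1 site in transcript order (filled at the DRACH consensus, open elsewhere). Orange lines are gene medians, and the grey band and line are the quartiles and the median of the whole list. 5 of 6 TSC2 sites lie below the median of the whole list, and the 3 highest circles are in DDIT4.

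Among the sestrins, SESN2 was alone in holding sites. SESN2 (ENSG00000130766.5, chr1:28259518-28282491, plus strand) encodes the sestrin known as a leucine sensor, on a transcript of 3462 nt in 10 exons. At least 9 sites, its number, were found in 3.25% of coding genes. The first site lay in codon 14 of exon 1, at GGACT at 28259888, 50 nt from the exon junction, with a score of 0.582 that exceeded 5.87% of GGACT sites. The other 8 were all in the 3′ UTR, which lies within exon 10. The rest of the coding sequence had none.

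The 3′ UTR sites of SESN2 fell into a run of 6 within 229 nt and a distant pair of single sites. The run opened 169 nt beyond the first base of the stop codon with GGACA at 28280969, which scored 0.895, and TGACT at 28280985, which scored 0.849. GGACC at 28281043 followed with 0.940, the highest score in SESN2 and higher than 99.3% of the GGACC sites in the list. The neighbouring adenosines 28281145 and 28281146 were both listed. The first of them lies at TGAAC, outside DRACH, and scored 0.523, and the second lies at GAACT and scored 0.914. Their windows differ by a shift of 1 nt, as the sequences above show, so they share nearly all of the sequence that entered the classifier. The run ended with GGACT at 28281197 and a score of 0.745. Both distant sites were at TGACT and scored 0.836 at 28282105 and 0.703 at 28282372, which is 1572 nt beyond the first base of the stop codon.

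Of the 53 DRACH motifs of SESN2, 8 were listed (15.1%, 7.85 to 27.1). The share was 7 of 25 in the last exon (28%, 14.3 to 47.6, against 10.1% in all hosts) and 1 of 28 in the others (3.57%, against 3.64%). SESN1 (ENSG00000080546.14, chr6:108984309-109094846, minus strand), with 108 motifs, and SESN3 (ENSG00000149212.12, chr11:95165513-95232541, minus strand), with 201, had none listed, for upper interval ends of 3.43% and 1.88%. SESN3 has the longest last exon of the 10 genes, 7829 nt, with 17 GGACT or GAACT motifs in it.

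TSC2 (ENSG00000103197.19, chr16:2047967-2089491, plus strand) differed from DDIT4, SESN2 and TRIB3 in where its sites lay. All 6 were in the coding sequence, all at DRACH, and 5 of the 6 were in internal exons of a transcript with 41 exons. At least 6 sites were found in 6.42% of coding genes, but over 6344 nt this came to 0.946 sites per kb, below the median of coding genes with sites. In exons 12, 29 and 32 the sites lay 31, 25 and 26 nt from the nearest junction. They were GAACT at 2061978 with a score of 0.587, AGACA at 2079581 with 0.556 and GGACA at 2083791 with 0.642. In all coding host transcripts, 2.36% (2.26 to 2.47) of the consensus motifs in coding sequence were listed when a junction was within 100 nt, and 17.3% (16.8 to 17.7) of those farther away. In TSC2 the same shares were 3 of 91 and 3 of 8. Of the 17 coding sites of the brakes on main transcripts, 5 were that close to a junction (29.4%, 13.3 to 53.1), against 30.4% of coding sites in all hosts.

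The higher scores of TSC2 came from exon 33, where 2 GGACC sites stood 65 nt apart. The one at 2084421 in codon 1377 scored 0.734 and the one at 2084486 in codon 1399 scored 0.886, and both were more than 100 nt from a junction. The windows of this pair are alike in the 4 letters that follow the motif. The last site, GGACT at 2088591 in exon 41, lay 17 nt before the stop codon and scored 0.640, higher than 11.4% of GGACT sites. The 3′ UTR of 877 nt had no listed site on the TSC2 strand. A pair of sites within the bounds of TSC2 was on the opposite strand, in exons of PKD1, and was not counted. The site at 2079581 stood in a block of 221 sites at the end of the list, where the chromosomes start again. Without that block TSC2 had 5 sites.

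TSC1 (ENSG00000165699.15, chr9:132891348-132946874, minus strand), the partner of TSC2 in the complex, had no listed site among 206 DRACH motifs, the most of the 10 genes (upper end of the interval 1.83%). Its GC content was 48.4%, against 60.5% in TSC2.

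Of the proteins that bind the mTOR complexes, DEPTOR (ENSG00000155792.10, chr8:119873717-120050918, plus strand) had none of 51 motifs listed (upper end of the interval 7.0%). AKT1S1 (ENSG00000204673.11, chr19:49869033-49878459, minus strand) had 2 sites, a number that 15.9% of coding genes reached or exceeded. Both were at GGACT. One, at 49873226, is exonic in all 6 coding transcripts, lay in codon 24 of the main one and scored 0.808. The other, at 49877200, scored 0.623 and is exonic in 2 of the 6 coding transcripts, where it belongs to the 5′ UTR in exon 1. It was the lone 5′ UTR site among the 38. It lies outside the main transcript and the canonical one, and which isoforms C643 cells use was not measured. No site was listed in the last exon of AKT1S1, which has 10 DRACH motifs.

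TRIB3 (ENSG00000101255.12, chr20:362835-397559, plus strand) held the most sites. At least 11 were found in 2.03% of coding genes, and 4.67 per kb exceeded the density of 95.0% of coding genes with sites. As in DDIT4, every site lay in the last exon, here exon 4 of 4 with 1362 nt of a transcript of 2356 nt. The coding sequence held 4 sites and the 3′ UTR 7.

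The coding sites of TRIB3 were GGACT at 396401 with a score of 0.739, GGACC at 396566 with 0.701, GGACT at 396630 with 0.928 and GGACG at 396641 with 0.679. The third had the highest score of the gene and lay 58 nt before the stop codon, in codon 339. The first sites of the 3′ UTR were a pair 4 nt apart outside DRACH, GGATT at 396726 with 0.735 and TGAGT at 396730 with 0.532. The GGATT score exceeded 95.3% of the 191 sites at that pentamer. TGAGT was a rare pentamer, with 2 sites in the whole list.

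Farther into the 3′ UTR of TRIB3 all 5 sites were at DRACH. GAACT at 396767 scored 0.903, AAACT at 396964 scored 0.857, GGACA at 397083 scored 0.853, AGACT at 397332 scored 0.901 and GGACT at 397451 scored 0.598. The score therefore did not fall steadily with distance from the stop codon, since the site 644 nt from its first base was close in score to the one at 79 nt. These 5 sites are exonic in 1 of the 2 coding transcripts of TRIB3. Of its DRACH motifs 8 of 39 were listed (20.5%, 10.8 to 35.5), with 8 of 29 in the last exon and 0 of 10 in the others, where the share of all hosts was 3.64%. Of its 4 GGACT motifs 3 were listed, and of its 2 GAACT motifs 1. All 6 are in the last exon, so that 4 of 6 were listed there (66.7%, 30.0 to 90.3). In last exons of all hosts this pair of motifs was listed in 29.7% of cases. As in DDIT4, these are the most frequent pentamers of the member sites themselves, so the count is no independent result.

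**Figure D3:**
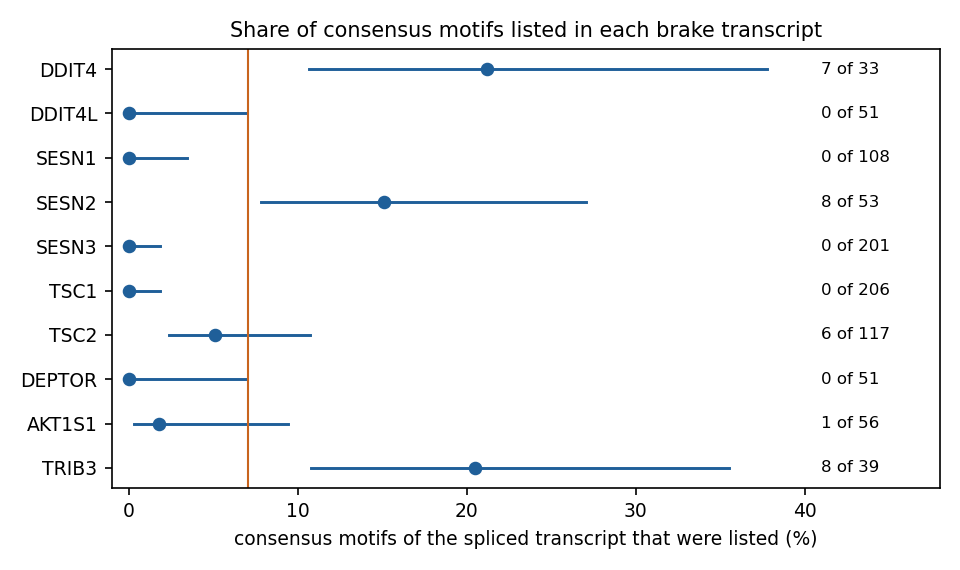
Share of the DRACH consensus motifs in each main transcript that were listed. Points are percentages, bars are 95% Wilson intervals over motifs, the numbers at the right are listed motifs of all motifs, and the vertical line is the share over all coding host transcripts (7.08%). The intervals of DDIT4, SESN2 and TRIB3 lie above the line, and those of TSC2 and AKT1S1 include it. This is no test of a difference, because motifs of the same list are not replicates. The genes were also chosen with earlier results of these data known. Since the line covers only transcripts with listed sites, it is no baseline for the genes without sites, whose intervals lie below it. It also pools all exons, and in last exons the share over all coding host transcripts was 10.1%.

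Set side by side, the genes with sites did not share 1 layout. The last exon held all sites of DDIT4 and TRIB3, 8 of 9 in SESN2, 1 of 6 in TSC2 and neither of those in AKT1S1. Over all 38 sites the share in the last exon was 78.9% (63.7 to 88.9). Without TSC2, a choice made after seeing the data, it was 90.6%. Of the 37 sites in main transcripts 81.1% (65.8 to 90.5) were in the last exon, against 76.2% (75.5 to 76.8) in all hosts. The 3′ UTR held 20 of the 38 sites (52.6%), and of the 37 in main transcripts 54.1% (38.4 to 69.0), against 55.9% in all hosts. Of the 30 member sites at DRACH in main transcripts 10 lay within 200 nt of the stop codon (33.3%, 19.2 to 51.2), against 33.3% of 16035 in all hosts. Pooled over the 5 genes, these shares were within their intervals of those of the list as a whole, while the genes differed among themselves.

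Spacing also varied. Neighbouring sites of the same transcript were a median of 102 nt apart over 32 pairs, against 96 nt over 14350 pairs in all coding hosts. The median was 91 nt in DDIT4, 80 nt in SESN2, 102 nt in TRIB3 and 602 nt in TSC2. When sites with gaps of at most 200 nt are joined, 8 of the 10 DDIT4 sites formed a run of 516 nt that crosses the stop codon. In TRIB3 9 of the 11 sites formed such a run of 683 nt. In SESN2 the run of 6 began after the stop codon. The stop codon of TSC2 had 1 site close by.

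The median score of the 38 sites was 0.742 (0.679 to 0.853), and that of the whole list 0.754 (0.751 to 0.757). By gene the medians were 0.845 in DDIT4, 0.836 in SESN2, 0.739 in TRIB3, 0.716 in AKT1S1 and 0.641 in TSC2. The order-statistic intervals of DDIT4 (0.617 to 0.966), SESN2 (0.582 to 0.914), TRIB3 (0.598 to 0.903) and TSC2 (0.556 to 0.886) overlapped. Such overlap is no test of a difference between genes, because sites of a gene are not replicates. With 6 sites, the TSC2 interval is the full range of its scores. AKT1S1, with 2 sites, has no interval. The 31 sites at DRACH had a median of 0.843 (0.703 to 0.895) and the 7 outside it 0.617 (0.523 to 0.735). In the whole list the 2125 sites outside DRACH had a median of 0.621. Motif and region were inputs of the classifier, so scores are no independent measure of either.

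The 5 genes with sites and the 5 without also differed in what their transcripts are made of. GC content of the main transcript ran from 58.0% (DDIT4) to 61.5% (TRIB3) with sites and from 37.1% (SESN3) to 48.4% (TSC1) without, with no overlap. The coding sequence alone gave 60.2% to 68.2% against 41.5% to 53.7%. The 3′ UTR alone gave 50.6% to 61.0% against 34.4% to 46.2%. DRACH motifs per kb of the main transcript ran from 15.3 to 18.9 in the genes with sites and from 19.1 to 23.6 in those without. These ranges are parted only by the narrow gap between DDIT4 (18.9) and SESN1 (19.1). The value also depends on the isoform, with 15.4 in the main and 10.7 in the canonical transcript of AKT1S1. Motif density, and the GC content of the coding sequence or the 3′ UTR alone, were not set beside those of all coding genes. TSC1 and SESN3 had the most motifs of the 10 genes, 206 and 201, and no listed site. Whether the number of motifs plays a part was not tested.

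The relation with the GC content of the main transcript also held over all coding genes. When the 19378 coding genes were ranked by GC content and cut into 10 groups of equal size, 0.568% (0.317 to 1.01) of the lowest group had sites, and SESN3 is in that group. The share was 1.86% in the group of SESN1, 3.87% in that of DDIT4L, 6.45% in that of DEPTOR and 12.3% in that of TSC1. It was 38.2% in the group of DDIT4 and 41.7% in that of SESN2, TSC2, AKT1S1 and TRIB3. The highest group, which holds none of the main transcripts of the brakes, had 40.1%. The canonical transcript of AKT1S1 has a GC content of 64.1%, above the lower bound of that group, 62.0%. Coding genes with sites had a median GC content of 57.1% and those without 46.5%. This is a description over genes, which are not replicates. The lengths of the main transcripts overlapped between the brakes with sites (1744 to 6344 nt) and without (2569 to 9563 nt). Expression and the mapping of reads were not measured here, and the part of length, expression and mapping in the relation was not tested.

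**Figure D4:**
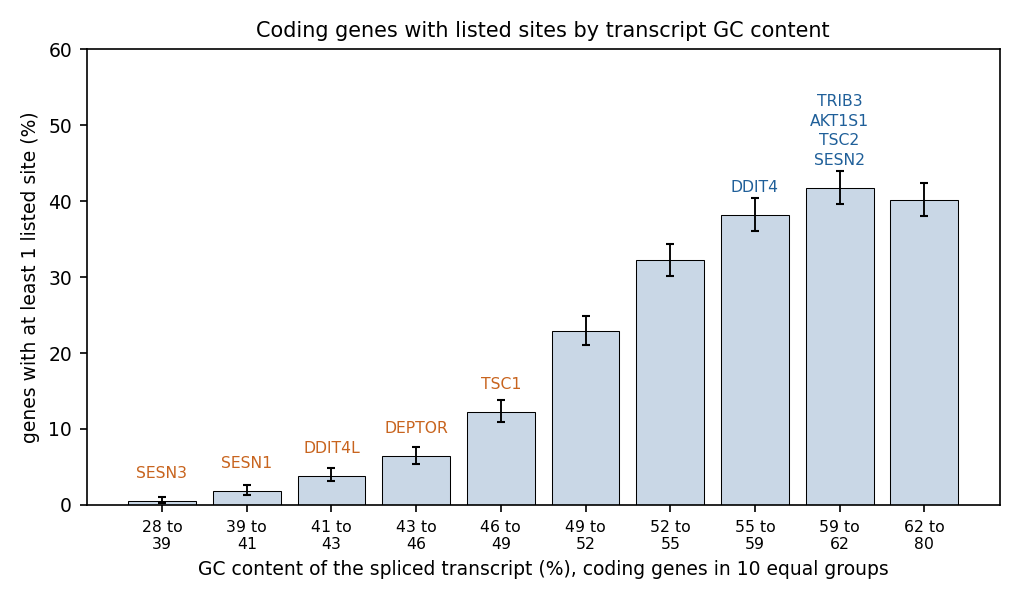
Share of coding genes with at least 1 listed exonic site, in 10 groups of equal size by the GC content of the main transcript. Bars are percentages of the genes in each group, whiskers are 95% Wilson intervals over genes, and gene names mark the group of each brake, in blue where it held sites and in orange where it did not. All 5 brakes without sites are in the lowest 5 groups, and all 5 with sites are in the eighth or ninth group.

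The wider pathway was examined through 72 genes in 10 lists, of which 27 held 138 sites in all, beside the 20.0% of coding genes with at least 1 site. Among the subunits of the mTOR complexes, the scaffold RPTOR had 9 sites, all in the 3′ UTR, MLST8 had 8 and PRR5L had 1. MTOR, the kinase itself, and RICTOR, MAPKAP1 and PRR5 had none. RHEB, the target of TSC2, also had none, nor had RHEBL1 and the third TSC subunit TBC1D7. In the amino acid branch on which the sestrins act, the GATOR2 subunit WDR24 had 14 sites, 8 in the coding sequence and 6 in the 5′ UTR, a number reached by 1.02% of coding genes. SEC13 had 3 and WDR59 had 1, and of the GATOR1 subunits NPRL3 had 2. The Rag GTPase RRAGA had 2 sites and the Ragulator subunits LAMTOR1, LAMTOR2 and LAMTOR4 had 5, 4 and 3. KPTN and FLCN had 2 each.

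Upstream of the brakes, the kinases AKT1, AKT2 and STK11 had 9, 8 and 16 sites, and the regulatory subunit PIK3R2 had 7. Both catalytic PI3-kinase subunits examined and all 5 AMPK subunits examined had none. STK11 had the most sites of the lists, 9 of them in the 5′ UTR, and 0.568% of coding genes had at least as many. In all coding host transcripts 2.46% of sites were in the 5′ UTR. The regions of STK11 and WDR24 rest on a single transcript of each gene. Among the outputs, the autophagy genes ULK1 and ATG13 had 11 sites each (2.03% of coding genes had at least 11), all in the 3′ UTR, as in RPTOR. TFEB, a lysosomal transcription factor, and MAF1, a repressor of RNA polymerase III, had 5 each, EIF4EBP1 had 3, RPS6 had 2, and RPS6KB2 and GRB10 had 1 each. The transcription factors that induce brakes under stress had few. ATF4, an inducer of DDIT4, SESN2 and TRIB3, had 1 site and DDIT3 had 2, and HIF1A, FOXO1, FOXO3 and NR3C1 had none. In the pathway too GC content was higher in the genes with sites, with a median of 58.7% against 43.6%, but the ranges overlapped. RPS6 held 2 sites at 42.4% and PRR5 held none at 62.1%.

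**Figure D5:**
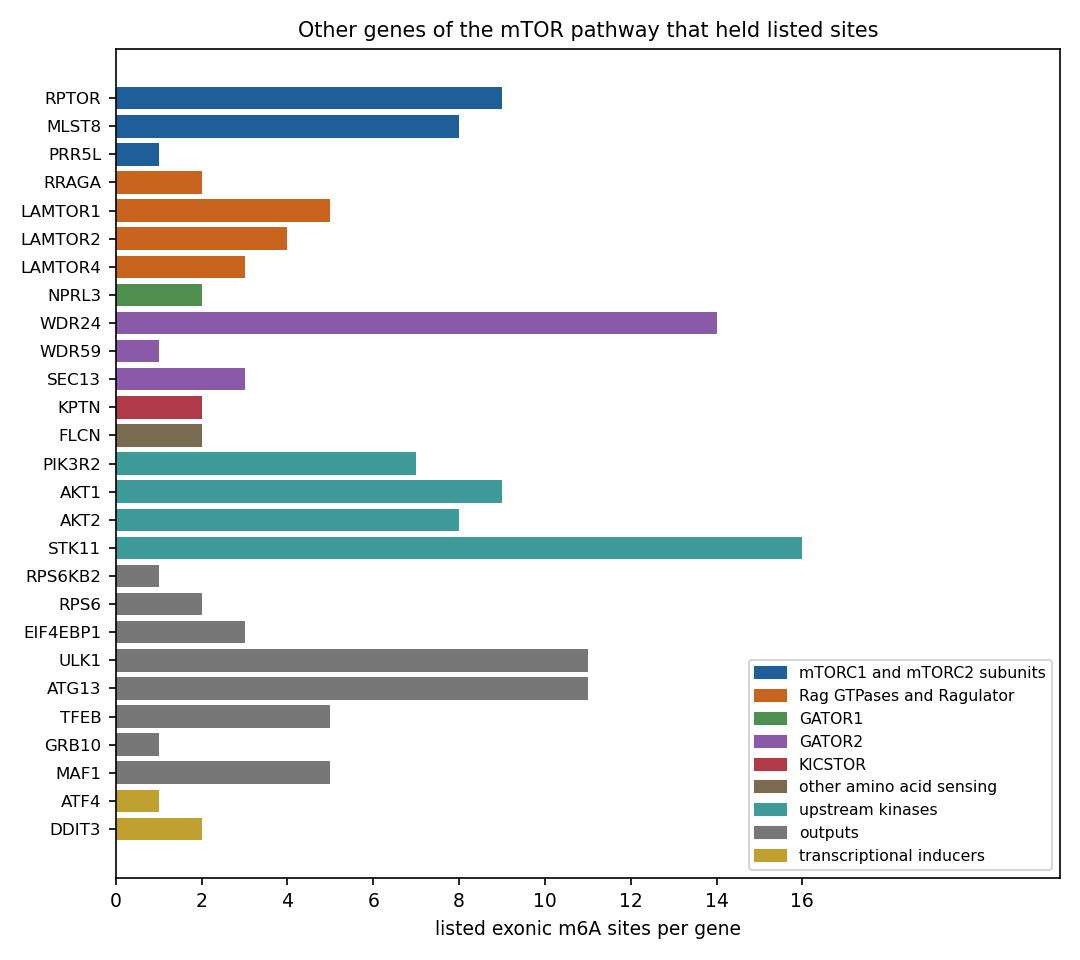
Listed exonic m6A sites in the 27 genes of the wider mTOR pathway that held any. Bars give the number of sites per gene and colours the list. STK11 (16) and WDR24 (14) have the longest bars, followed by ULK1 and ATG13 (11 each); 45 further genes of the lists held none and are not drawn.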

How the data were processed

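The files hold miCLIP2 sites from untreated C643 cells. Per the labels and the study's methods, the authors trimmed reads with Flexbar, aligned them to GRCh38 (GENCODE release 31) with STAR 2.7.3a, removed duplicates with UMI-tools 1.0.0 and used SAMtools 1.9 and bedtools 2.27.1. Peaks were called per replicate with PureCLIP, kept when found in at least 2 replicates, and classified by m6Aboost. The deposited score is a fraction between 0 and 1, the prediction for each site of 1 list without values per replicate.

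The members and gene lists were chosen with earlier results of these data known. Sites were assigned by strand to exons of GENCODE release 44 on the same assembly. The main transcript was the longest with transcript support 3 or better (or unrated), level 1 or 2 and a complete coding sequence. No test was run. Shares have Wilson intervals and medians order-statistic intervals, both at 95%. On data with known answers, 1000 of 1000 planted positions were recovered. All members and all pathway genes with sites in the lists analysed are named. Some other pathway genes are not reported here. Alternatives changed the score minimum, transcript, windows and motifs. Python 3.11.15, pysam 0.24.0, scipy 1.17.1 and matplotlib 3.10.9 were used.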

Additional observations from a re-analysis of the deposited data

How the results depend on the processing

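Of 64 alternative values computed for 12 results, 52 stayed within the interval or the margin of the value reported and 12 moved. With a score of at least 0.7, 24 sites were left, 6 of them in DDIT4. In that set 95.8% lay at DRACH, and the median score was 0.855. Within 100 nt of a junction lay 1 of 9 coding sites (11.1%, 1.99 to 43.5), against 29.4% without the minimum. A score minimum cannot raise a count or lower the median, and motif was an input of the score, so these moves are no independent results. The listed share of DRACH motifs, 3.28% over all 10 transcripts, was 8.91% for GGAC motifs alone and 10.1% over the 5 transcripts with sites. With a stop codon window of 400 nt in place of 200 nt, 56.7% of DRACH sites fell inside. A wider window, or a larger distance between neighbours, cannot lower such a share. Without TSC2, a choice made after seeing the data, 90.6% of sites were in the last exon. The share of neighbours at most 50 nt apart, 25%, was 46.9% at 100 nt, 12.5% at 25 nt and 12% for DRACH sites alone. The cause of these changes, beyond the sites each choice leaves, was not tested. No paired analysis was possible because the list holds 1 group and no values per replicate, and no replicate could be left out. Depth per site is unknown.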
